A study of Mus musculus with 6 samples.

Results

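The genes described here steer a B cell toward the plasma cell, or mark the change, in germinal centre B cells with and without Basp1. They are 10 genes chosen by symbol out of the 23420 that each library lists: the transcription factor genes Irf4, Irf8, Prdm1, Xbp1 and Zbtb20, the elongation factor gene Ell2, the joining chain gene Jchain (listed under its older symbol Igj), and the surface receptor genes Slamf7, Sdc1 and Tnfrsf17. All 10 symbols were found in all 6 libraries.

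Germinal centre B cells are kept in their state by repressors such as BCL6 and PAX5, and IRF8 is high in them. IRF4 acts by its dose: low amounts go with the germinal centre state, and high amounts switch on Prdm1, whose product BLIMP-1 silences the B cell programme. XBP1 then enlarges the endoplasmic reticulum for secretion, ELL2 favours the secreted form of immunoglobulin messages, and ZBTB20 supports the survival of plasma cells.

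Messenger RNA came from germinal centre B cells of the spleen, bead-enriched and then sorted, on day 10 after mice were immunized with NP-KLH, a hapten on a carrier protein. The KO group (3 libraries) was BASP1 fl/fl hCD20TamCre+/- and the WT group (3 libraries) BASP1 +/+ hCD20TamCre+/-. Both groups thus carried the same Cre recombinase, which the human CD20 promoter restricts to B cells and tamoxifen switches on, and both were given tamoxifen (1 mg each time) on day 5, again on day 7 and last on day 9. The labels give no ages and do not say whether libraries came from separate mice, so p-values measure only the spread between these libraries, which may be technical.

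Values are deposited log2 CPM (read counts scaled to a common library total), and CPM quoted for a group are geometric means. Read depth is unknown, because the values had already been scaled to a common distribution. The most common value, -5.063 on the log2 scale, is called the floor. Some values lie below it, such as Cd28 in WT 2 at -5.58. The deposited values also hold no difference between replicate numbers (a gene's WT and KO values add up alike for numbers 1, 2 and 3, within 0.001), so each gene carries a mean and 3 paired differences. For this reason WT and KO do not overlap whenever all 3 pairs go one way. The targeted gene, Basp1, was at 44.8, 59.5 and 46.0 CPM in WT 1, 2 and 3 and at 9.65, 7.27 and 9.39 CPM in KO 1, 2 and 3.

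The comparison asked whether transcripts of plasma cell fate differed between KO and WT germinal centre B cells. By limma, a linear model with genotype and replicate number fitted over 10133 genes, 0 of the 8 tested members passed a false discovery rate of 5%. Over all tested genes 0.266% passed, 0.168% higher and 0.0987% lower in KO. The limma p-values and intervals lean on a spread pooled over genes (median 81.2 degrees of freedom, against 2 from a gene's own values). They therefore do not follow from the SD of 3 pairs printed with a gene. At an unadjusted p under 0.05 there were 4 of the 8, Irf4 and Prdm1 toward KO and Jchain and Slamf7 toward WT, where 8.82% of all tested genes were (4.16% toward KO and 4.66% toward WT). All 3 pairs went one way for 3 of the 8, against 27.7% of all tested genes. Irf4 and Prdm1 were higher in KO in all 3, as 15.2% of tested genes were, and Slamf7 was lower in all 3, as 12.5% were. The median log2 difference of the 8 was 0.0020, beside 0.0037 over all tested genes. The other 2 members, Sdc1 and Tnfrsf17, had a mean under 1 CPM over the 6 libraries and were not tested. In bulk RNA, a higher level in some cells and a larger share of cells with a high level cannot be told apart.

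**Figure D1:**
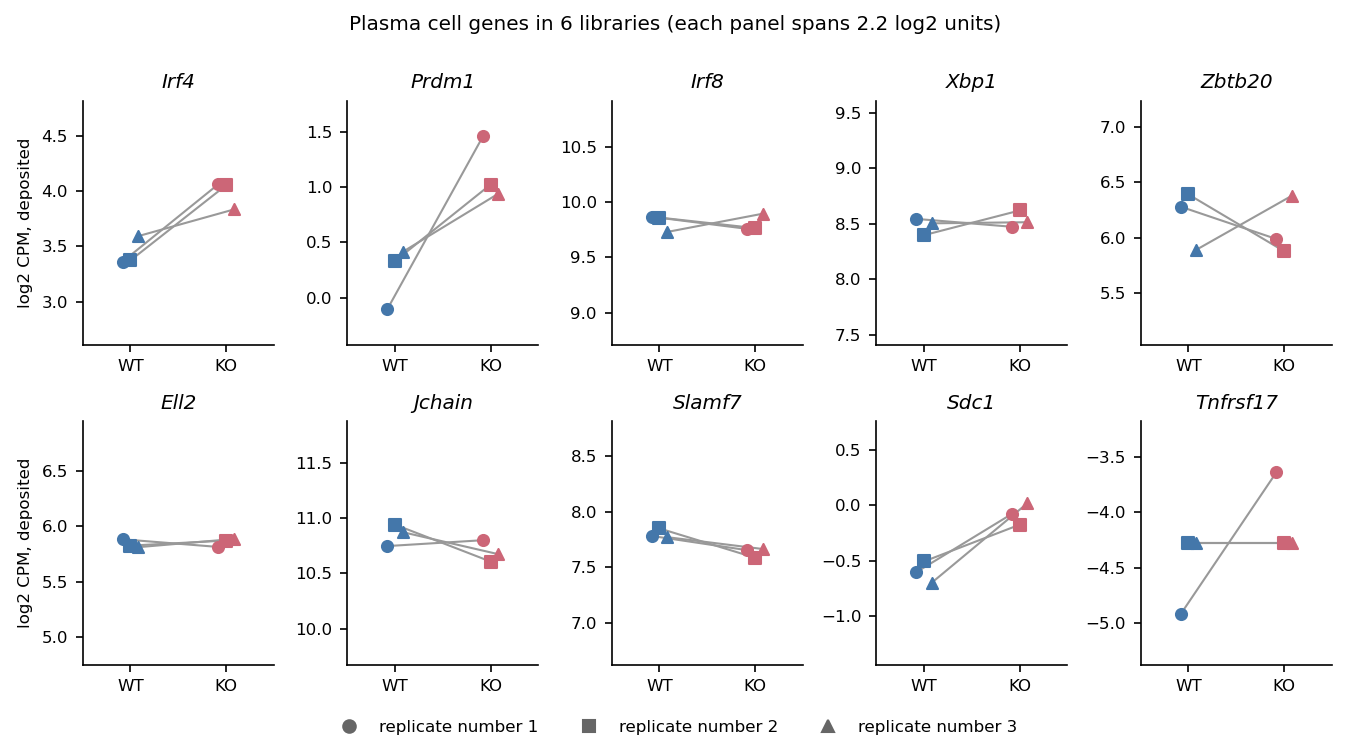
Deposited log2 CPM of the 10 plasma cell genes in the 3 WT (blue) and 3 KO (red) libraries, with grey lines joining libraries of the same replicate number. Irf4, Prdm1 and Sdc1 were higher in KO in all 3 pairs, Slamf7 was lower in all 3, and Zbtb20 crossed, with pair 3 going up and pairs 1 and 2 down.

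Irf4, which encodes the dose-dependent switch factor, was listed at 10.3, 10.4 and 12.1 CPM in WT 1, 2 and 3 and at 16.7, 16.6 and 14.2 CPM in KO 1, 2 and 3. The lowest KO library lay above the highest WT library, and pair 3 was the closest. The log2 difference was 0.54 ± 0.26 (SD, n = 3 pairs; limma adjusted p = 0.0636), a fold of 1.45 with a 95% interval from 1.20 to 1.77 that is not adjusted for the number of genes. It ranked 42nd of the 10133 tested genes by p and 77th by size toward KO. The call turned on the processing: Irf4 passed when low genes were kept in the fit (adjusted p = 0.0398) or pair 3 was left out (adjusted p = 0.0349), and over the 11 alternatives its adjusted p ran from 0.0349 to 0.702. The difference itself stayed between 0.46 and 0.69 over those alternatives. The gene lies on chromosome 13, from 30749226 to 30766976 on the plus strand (GRCm38, the build also called mm10), with 4903 bases of annotated exon and no exon shared with another annotated gene.

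Prdm1, which encodes BLIMP-1, was listed at 0.930, 1.26 and 1.33 CPM in WT 1, 2 and 3 and at 2.75, 2.03 and 1.92 CPM in KO 1, 2 and 3. All KO libraries were above all WT libraries, at a level where little was detected in either group. Prdm1 differed by 0.93 ± 0.56 on the log2 scale (SD, n = 3 pairs; limma adjusted p = 0.256), a fold of 1.90 with an unadjusted 95% interval from 1.23 to 2.93. Pair 1 differed by 1.56, pair 2 by 0.69 and pair 3 by 0.53, so pair 1 carried the largest share, and the difference was 0.61 without it. Among the 1077 tested genes within 1 log2 unit of its level the median SD of paired differences was 0.437, and 31.8% had a larger SD than Prdm1. Its adjusted p ran from 0.0786 to 0.745 over the 10 alternatives that tested it. It occupies chromosome 10 between 44437177 and 44528501, minus strand.

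**Figure D2:**
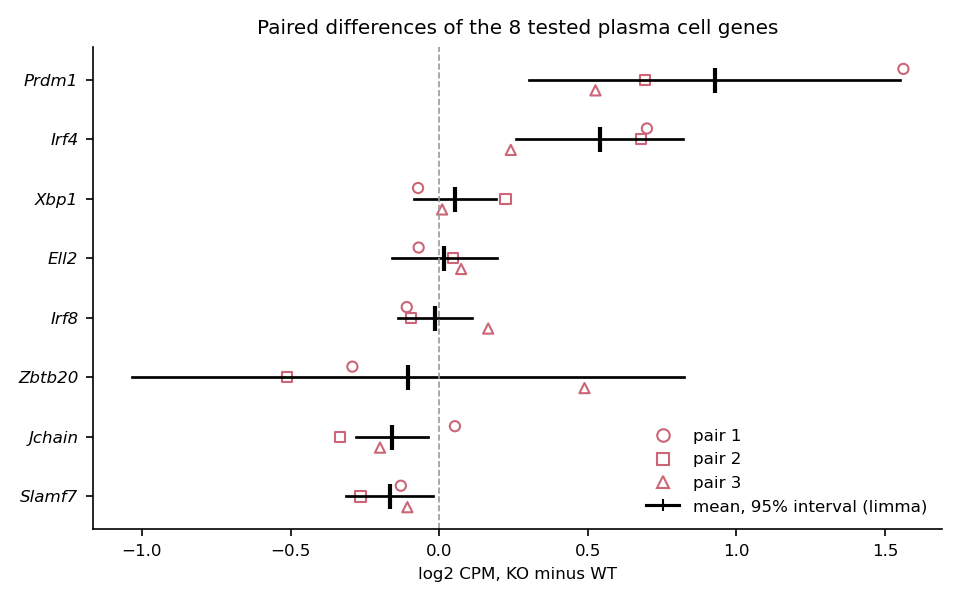
Differences in log2 CPM, KO minus WT, for the 8 tested plasma cell genes, with 1 open symbol per pair and the mean with its limma 95% interval in black. The intervals of Prdm1 and Irf4 lie above 0, those of Jchain and Slamf7 below 0, and Zbtb20 has the widest, from -1.03 to 0.82.

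Irf8, which encodes the close relative and counterpart of IRF4 in germinal centre cells, was listed at 934, 929 and 849 CPM in WT 1, 2 and 3 and at 866, 870 and 952 CPM in KO 1, 2 and 3. The groups overlapped, and KO minus WT was -0.01 ± 0.15 on the log2 scale (SD, n = 3 pairs; limma adjusted p = 0.982), with an interval from -0.14 to 0.11. The gap between Irf8 and Irf4 within a library was 6.50, 6.49 and 6.14 log2 units in WT 1, 2 and 3 and 5.70, 5.71 and 6.06 in KO 1, 2 and 3. The gap changed by -0.81, -0.77 and -0.08 in the 3 pairs, so it was narrower in KO each time and pair 3 showed little of it. Irf8 lies on chromosome 8 from 120736358 to 120756694 on the plus strand.

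Xbp1, which drives the secretory apparatus of plasma cells, was listed at 373, 337 and 363 CPM in WT 1, 2 and 3 and at 355, 393 and 366 CPM in KO 1, 2 and 3. The groups overlapped, with the lowest value in WT 2 and the highest in KO 2. The log2 difference was 0.05 ± 0.15 (SD, n = 3 pairs; limma adjusted p = 0.895), and its interval of -0.08 to 0.19 corresponds to folds of 0.943 to 1.14. The counts are per gene, so spliced and unspliced Xbp1 messages, of which only the spliced one encodes the active factor, are not separated. The gene lies on chromosome 11 from 5520659 to 5525893.

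Zbtb20, a BTB zinc finger factor of long-lived plasma cells, was listed at 77.8, 84.0 and 59.3 CPM in WT 1, 2 and 3 and at 63.5, 58.8 and 83.3 CPM in KO 1, 2 and 3. WT 1, WT 2 and KO 3 were high and the other libraries low, so the groups overlapped. On the log2 scale Zbtb20 differed by -0.11 ± 0.53 (SD, n = 3 pairs; limma adjusted p = 0.959). That SD was unusual for the level: of 3322 tested genes within 1 log2 unit, 0.602% had a larger one. Pair 3 was the only 1 higher in KO. Without it the difference was -0.40 and passed (limma adjusted p = 0.0266), and without pair 2 it was 0.10. Zbtb20 has the most annotated exon sequence of the members, 30730 bases on chromosome 16 between 42875881 and 43642602. Across tested genes, exon length and the paired difference had Spearman correlations of -0.239, -0.107 and 0.214 in pairs 1, 2 and 3, the same signs as the 3 differences of Zbtb20. After a smooth trend over length was subtracted within each pair, those differences went from -0.29, -0.51 and 0.49 to -0.17, -0.33 and 0.41. This step was chosen after seeing the data, and the part of exon length in the differences of Zbtb20 was not tested.

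Ell2, the elongation factor that promotes the secreted immunoglobulin form, had the smallest SD of paired differences among the 8 tested members. It was listed at 59.0, 56.7 and 56.2 CPM in WT 1, 2 and 3 and at 56.3, 58.6 and 59.1 CPM in KO 1, 2 and 3. The groups overlapped almost fully, and the log2 difference was 0.02 ± 0.08 (SD, n = 3 pairs; limma adjusted p = 0.984; interval -0.16 to 0.19). It lies on chromosome 13 from 75706757 to 75772364, and 1 annotated gene on its own strand and 1 on the other share exon bases with it, at most 130.

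Jchain, which encodes the chain that joins IgA and IgM into polymers, was by far the most abundant member. It was listed at 1719, 1966 and 1875 CPM in WT 1, 2 and 3 and at 1783, 1560 and 1634 CPM in KO 1, 2 and 3. KO 2 and KO 3 were the lowest, and KO 1 lay above WT 1. The log2 difference was -0.16 ± 0.20 (SD, n = 3 pairs; limma adjusted p = 0.331; fold 0.895). A larger SD was found in 3.20% of the 125 tested genes within 1 log2 unit of its level. Without pair 1 the difference was -0.27 (adjusted p = 0.0510), and without pair 2 it was -0.07. It occupies chromosome 5 between 88519809 and 88527891, minus strand.

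Slamf7, a SLAM family receptor that plasma cells carry in large amounts, was listed at 220, 231 and 218 CPM in WT 1, 2 and 3 and at 201, 192 and 203 CPM in KO 1, 2 and 3. All KO libraries were below all WT libraries. The log2 difference was small, -0.17 ± 0.09 (SD, n = 3 pairs; limma adjusted p = 0.457; fold 0.891), and it stayed between -0.20 and -0.12 over the 11 alternatives, with 0 of them passing (adjusted p from 0.0762 to 1). Slamf7 occupies chromosome 1 between 171632403 and 171653035, minus strand. An annotated gene on the opposite strand shares 423 exon bases with it, and whether reads were counted by strand is not given in the labels used here.

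Sdc1, which encodes syndecan-1 (CD138), the heparan sulfate proteoglycan used to sort plasma cells, was near the limit of detection. It was listed at 0.657, 0.703 and 0.615 CPM in WT 1, 2 and 3 and at 0.947, 0.885 and 1.01 CPM in KO 1, 2 and 3. All KO libraries were above all WT libraries, by 0.53 ± 0.19 on the log2 scale (SD, n = 3 pairs). It was tested only when the filter on low values was dropped, where its adjusted p by limma was 0.864. Tnfrsf17, which encodes the APRIL receptor BCMA, stood close to the floor: 4 libraries were at -4.28 log2 CPM, WT 1 at -4.92 and KO 1 at -3.64. No fold is given for it. Sdc1 lies on chromosome 12 from 8771323 to 8793715 and Tnfrsf17 on chromosome 16 from 11313812 to 11320074.

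Levels were compared between members per kilobase of annotated exon (log2 CPM per kb, all transcripts merged). Jchain stood highest at a mean of 9.44, followed by Irf8 (6.99), Xbp1 (6.81), Slamf7 (5.52), Ell2 (2.55), Irf4 (1.42), Zbtb20 (1.19), Prdm1 (-1.80), Sdc1 (-2.27) and Tnfrsf17 (-3.98). Neighbours whose library ranges overlapped were Irf8 with Xbp1, Irf4 with Zbtb20, and Prdm1 with Sdc1. The order thus put a secreted chain and 2 factors that B cells also use at the top, and the sorting marker, the BCMA gene and Prdm1 at the bottom, in both groups. The position of Zbtb20 depends on its long annotated exon sequence.

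**Figure D3:**
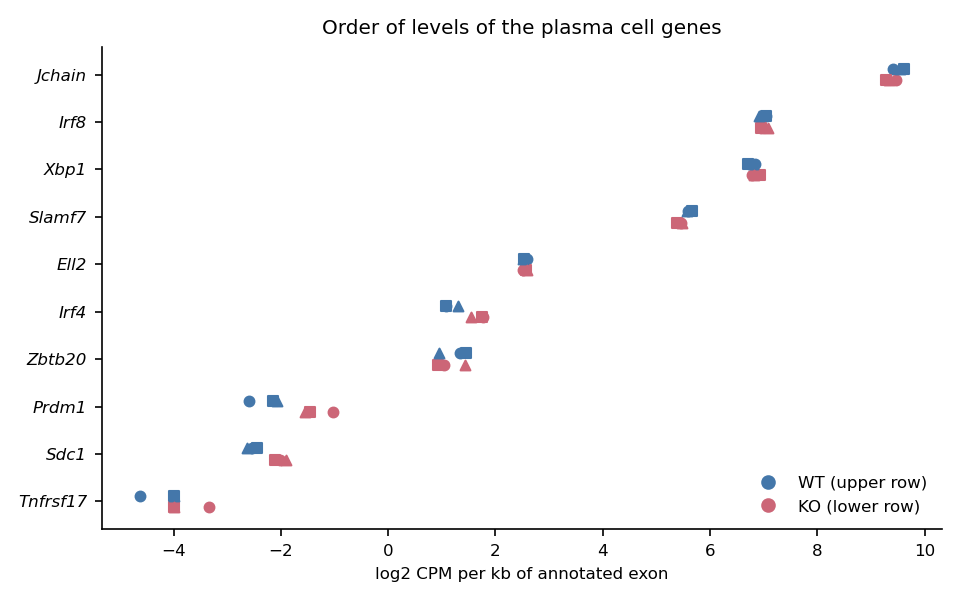
Level of each plasma cell gene in log2 CPM per kb of annotated exon (horizontal axis), with 3 WT libraries in blue above 3 KO libraries in red and the symbol shape giving the replicate number. Jchain lies near 9.44 and Tnfrsf17 near -3.98, and the WT and KO points of a gene sit close together next to the gaps between most genes.

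The sequences before the start sites of Irf4, Prdm1 and Sdc1 are shown because these 3 members were higher in KO in all 3 pairs. They come from RefSeq (GRCm38.p6), are written 5′ to 3′ on the gene's own strand, and end at the base before a start site. For Prdm1 that is the RefSeq start site, which lies inside the longer span that GENCODE gives the gene. For Irf4 and Sdc1 it is the first base of the GENCODE gene, upstream of the RefSeq start site. Capitals mark the AP-1 match TGANTCA.
Irf4 (chr13:30748983-30749225, plus strand): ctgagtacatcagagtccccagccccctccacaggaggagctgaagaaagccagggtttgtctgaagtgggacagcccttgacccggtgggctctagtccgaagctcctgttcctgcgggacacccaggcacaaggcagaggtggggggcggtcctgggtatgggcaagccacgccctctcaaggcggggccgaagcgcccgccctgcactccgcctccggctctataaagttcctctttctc
Prdm1 (chr10:44458749-44458998, minus strand): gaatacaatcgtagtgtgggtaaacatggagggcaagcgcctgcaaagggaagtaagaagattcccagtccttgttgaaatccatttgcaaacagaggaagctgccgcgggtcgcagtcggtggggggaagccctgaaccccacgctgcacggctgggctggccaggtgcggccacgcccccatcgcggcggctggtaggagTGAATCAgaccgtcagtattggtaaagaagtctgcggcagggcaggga
Sdc1 (chr12:8771146-8771322, plus strand): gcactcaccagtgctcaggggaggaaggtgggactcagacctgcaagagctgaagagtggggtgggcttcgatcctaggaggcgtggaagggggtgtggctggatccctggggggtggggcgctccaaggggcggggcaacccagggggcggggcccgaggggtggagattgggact
The 250 bases before the start site were searched on both strands for 7 motifs in the 11 RefSeq promoters of the 10 members. AP-1 (TGANTCA) was found in 2 of them, 48 bases before the start of Prdm1 and 42 before that of Slamf7, and in 6.75% of all 32851 promoters. The tandem IRF motif (GAAA and GAAA with 2 free bases between) was found in 1, that of Tnfrsf17, and in 2.98% of all promoters. The composite of ETS and IRF sites (GGAA and GAAA with 2 free bases between, 2.30% of all promoters), NF-kB (GGGA, 1 free base and TTTCC, 0.356%), the T-box site (AGGTGTGA, 1.12%), the UPRE core (TGACGTG, 1.65%) and EGR (GCGNGGGCG, 4.70%) had no match in the 11. The ETS-IRF and tandem IRF motifs can overlap, and a match is only a match of letters.

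Genes that work with or against the members were described by lists, with no test of a list. Of the 125 tested genes on them that are not members, 1 passed 5% FDR. Jun, an AP-1 subunit that can bind beside IRF4, rose from 2.80 to 5.21 CPM, by 0.90 ± 0.31 on the log2 scale (SD, n = 3 pairs; limma adjusted p = 0.0482). That call was lost under 6 of the 10 alternatives that tested it, among them without pair 1 (adjusted p = 0.225) and without pair 2 (0.350). Of the 11 tested DNA-binding partners of IRF4 and IRF8 3 were positive and 8 negative, with a median of -0.03. Over all tested genes 51.3% were positive. Jund differed by -0.18 ± 0.11 and Tcf3 by -0.15 ± 0.18. The list of interferon regulatory factors also held the IRF2-binding protein genes Irf2bp1, Irf2bp2 and Irf2bpl. Of its 9 tested genes 6 were positive, with a median of 0.01. Irf1, which interferon induces, was at 29.6 CPM in WT and 39.2 in KO, higher in all 3 pairs by 0.40 ± 0.13 (limma adjusted p = 0.0515), and Irf7 differed by -0.16 ± 0.23. Irf1 passed under 4 of the 11 alternatives. They included the fits without the replicate block (limma adjusted p = 0.0352) and with no filter on low values (0.0321). The others were at a mean of at least 4 CPM (0.0470) and without pair 3 (0.0429). At a mean of at least 4 CPM Jun was not tested and Irf1 was the list gene called. The fit without the block ignores the degrees of freedom that the deposited values had lost to the replicate number.

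The repressors and B cell identity factors that oppose the plasma cell fate had mostly small negative differences, KO minus WT. Of 11 tested genes 10 were negative and 1 positive, with a median of -0.10, where 51.3% of all tested genes were positive, and 0 of the 11 passed 5% FDR (2 had an unadjusted p under 0.05, by limma). Foxo1 differed by -0.27 ± 0.33 (adjusted p = 0.371), by -0.41 without pair 1, where it passed (0.00376), and by -0.09 without pair 3. Ciita, the master activator of MHC class II, differed by -0.17 ± 0.17 (adjusted p = 0.415) and Bach2, which represses Prdm1, by -0.16 ± 0.21 (adjusted p = 0.590). The median was -0.18 in pair 1, -0.19 in pair 2 and 0.07 in pair 3, so the third pair went the other way. Some other lists were mostly negative too. Of 10 germinal centre markers 7 were negative (pair medians -0.16, -0.17 and 0.04). All 5 tested B cell markers (-0.18, -0.08 and -0.06) and all 4 tested nuclear RNAs (-0.44, -0.97 and 0.32) were negative. The 6 tested naive B cell markers were all positive (pair medians -0.11, 0.51 and -0.20), as were the 2 tested T cell markers (0.47, 0.24 and 0.06). Bcl6 is on both the repressor and the germinal centre list and Pax5 on both the repressor and the B cell list, and the part of these lists in the repressors' differences was not tested.

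Downstream of XBP1, the genes for folding and export of proteins in the endoplasmic reticulum had differences of both signs. Of 32 tested genes 18 were positive and 14 negative, with a median of 0.02 and pair medians of -0.01, 0.17 and -0.02, and 0 passed 5% FDR by limma (5 had an unadjusted p under 0.05). Sec61b, a subunit of the translocation channel, differed by 0.20 ± 0.04, higher in all 3 pairs (adjusted p = 0.320). Sec23b, a coat protein of export vesicles, differed by 0.20 ± 0.12, and Syvn1, a ubiquitin ligase that removes misfolded proteins, by -0.23 ± 0.25. Sec61b passed only without the replicate block (limma adjusted p = 0.0352), a fit that ignores the degrees of freedom already lost to the replicate number. Syvn1 passed without pair 3 (-0.37, limma adjusted p = 0.0126) and differed by -0.15 without pair 2. In the list of stress sensors and the PERK branch 8 of 9 tested genes were negative, where 51.3% of all tested genes were positive. The list median was -0.17 (pair medians -0.27, 0.02 and -0.18), and 0 passed by limma (1 with an unadjusted p under 0.05). Germinal centre markers, B cell markers and nuclear RNAs were mostly negative too. The PERK gene Eif2ak3 itself differed by -0.21 ± 0.24, Atf4 by -0.17 ± 0.08 and its target Chac1 by -0.38 ± 0.10. Without pair 3 Eif2ak3 differed by -0.35 and passed (adjusted p = 0.0261), and without pair 2 it differed by -0.11.

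Other plasma cell genes had differences of both signs. Of 26 listed genes 17 were tested, 11 positive and 6 negative, with a median of 0.07, and 0 passed by limma (1 with an unadjusted p under 0.05). Mzb1, a chaperone of immunoglobulin assembly, was at 895 CPM in WT and 873 in KO, a description outside the naming rule given for its abundance. Eaf2, the partner of ELL proteins, was at 322 and 268 CPM and differed by -0.27 ± 0.21 (adjusted p = 0.0923). It passed without pair 1 (adjusted p = 0.00482) and with no filter on low values (0.0459). Pou2af1, the B cell coactivator OBF-1, differed by -0.11 ± 0.08, and Cd9 by 0.30 ± 0.59. In the elongation complex of ELL proteins 9 of 12 tested genes were negative with a median of -0.12, where 51.3% of all tested genes were positive. In that list 0 passed by limma (1 with an unadjusted p under 0.05), Mllt3 differing by -0.45 ± 0.39 and Ice2 (listed as Narg2) by 0.24 ± 0.19.

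Around the surface members, 0 genes passed by limma in each of 4 lists. The receptors of BAFF and APRIL that were tested, Tnfrsf13c and Tnfrsf13b, differed by -0.11 ± 0.06 and 0.09 ± 0.16. Of 7 tested genes of the SLAM family and its adaptors 4 were positive (median 0.05), Slamf6 differing by -0.13 ± 0.14. Of 9 syndecan and heparan sulfate genes 5 were positive (median 0.0023), Hs2st1 differing by -0.37 ± 0.26, lower in all 3 pairs. Of 11 other BTB zinc finger genes 4 were positive (median -0.03), Zbtb38 differing by -0.24 ± 0.25. At an unadjusted p under 0.05 these 4 lists held 2 genes, Hs2st1 and Zbtb38. Immunoglobulin constant region genes were not analysed here.

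**Figure D4:**
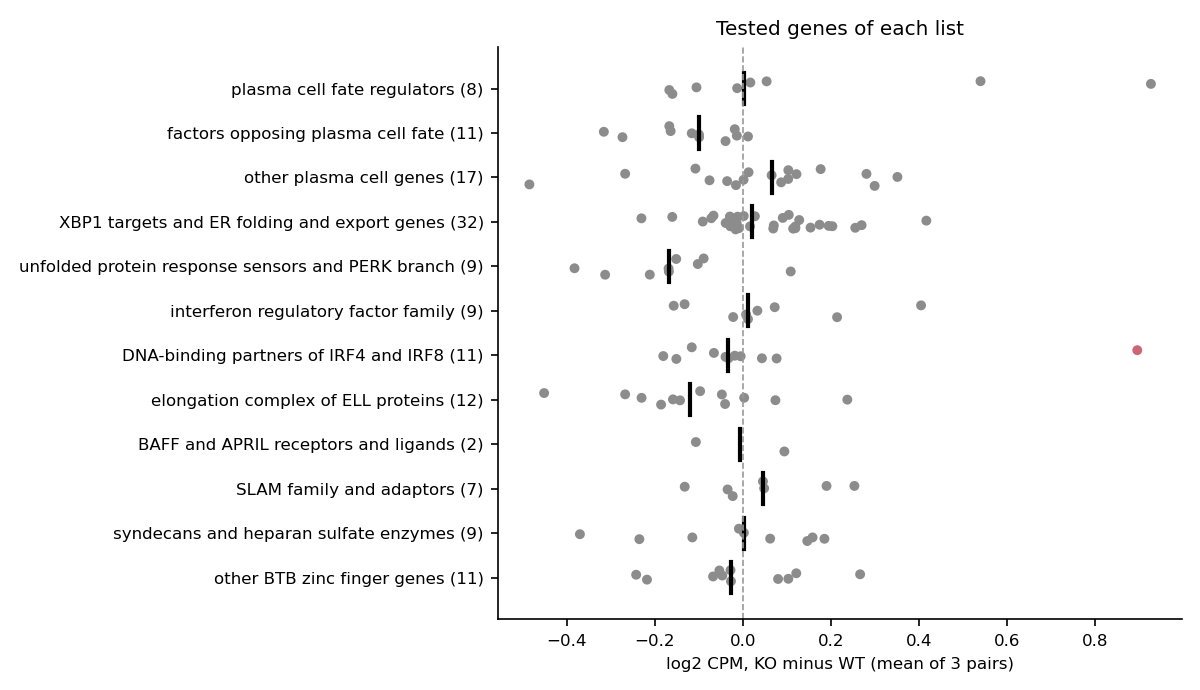
Difference in log2 CPM, KO minus WT, of each tested gene (points, spread vertically at random) in 12 lists, with the list median as a black bar and the number tested in brackets. The red point, Jun at 0.90, passed 5% FDR, and among the plasma cell fate regulators Irf4 and Prdm1 stand to the right at 0.54 and 0.93.

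Genes were ranked by how near their 3 paired differences were to those of a member (Euclidean distance over 3 pairs, 8829 genes of at least 4 CPM that were not members). Nearest to Irf4 (0.70, 0.68 and 0.24) were Phf16 (0.72, 0.71 and 0.13), Gbp4 (0.60, 0.76 and 0.21) and Scrn2 (0.58, 0.69 and 0.18). Nearest to Prdm1 (1.56, 0.69 and 0.53) were Serpina3g (0.99, 0.77 and 0.27), Dusp4 (0.87, 0.46 and 0.30) and Egr2 (0.70, 0.81 and 0.53), at distances of 0.634 to 0.866 against 0.119 to 0.139 for Irf4. Nearest to Xbp1 (-0.07, 0.22 and 0.01) were Tram1 (-0.08, 0.25 and 0.01), Rpn1 (-0.07, 0.20 and -0.01) and Agpat1 (-0.09, 0.20 and 0.00), all within 0.0325. These are descriptions over 3 pairs that share all libraries.

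The labelled cell type was checked by markers. All 10 germinal centre B cell markers had a mean of 1 CPM or more. Their summed level was 3589 to 3721 CPM in WT and 3435 to 3559 in KO, lower in KO in all 3 pairs. The 6 B cell markers summed to 23610 to 23900 CPM in WT and 23100 to 23370 in KO, also lower in all 3. Most of that sum was Cd74, which was not tested because it stood at 15730 CPM in all 6 libraries, the highest value of each. Of single markers, 3 of 10 germinal centre and 2 of 5 tested B cell markers were lower in all 3 pairs, against 12.5% of all tested genes. T cells also carry Irf4, Prdm1 and Slamf7: 9 of 11 T cell markers were under 1 CPM, and Cd3e, Bcl11b and Themis were at the floor in all 6 libraries. The T cell sum of 193 to 206 CPM in WT and 226 to 241 in KO was nearly all Lck, at 194 and 228 CPM and higher in KO in all 3 pairs. Monocyte and macrophage markers summed to 11.7 to 16.8 CPM in WT and 9.92 to 13.8 in KO, with 8 of 10 under 1 CPM. Dendritic cell markers summed to 110 to 120 and 100 to 109 CPM, with Flt3 at 98.9 and 91.0, Clec9a at the floor and 5 of 7 under 1 CPM. All 7 neutrophil and all 6 NK cell markers were under 1 CPM. Erythroid and platelet markers reached 9.63 CPM in KO 2 and 1.87 to 4.89 elsewhere. The naive B cell sum was highest in KO 2 (576 CPM) and lowest in WT 2 (480 CPM). Nuclear RNA, a sign of RNA quality, summed to 277 CPM in KO 2 and 644 in WT 2, and to 369 to 482 in the other libraries. Pair 2 therefore differed most in the last 3 of these sums, and their part in the differences of Irf4, Prdm1 and Jchain was not tested. Without pair 2 the log2 difference of Irf4 was 0.47 (limma adjusted p = 0.638), that of Prdm1 1.04 (0.609) and that of Jchain -0.07. These did not pass 5% FDR.

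**Figure D5:**
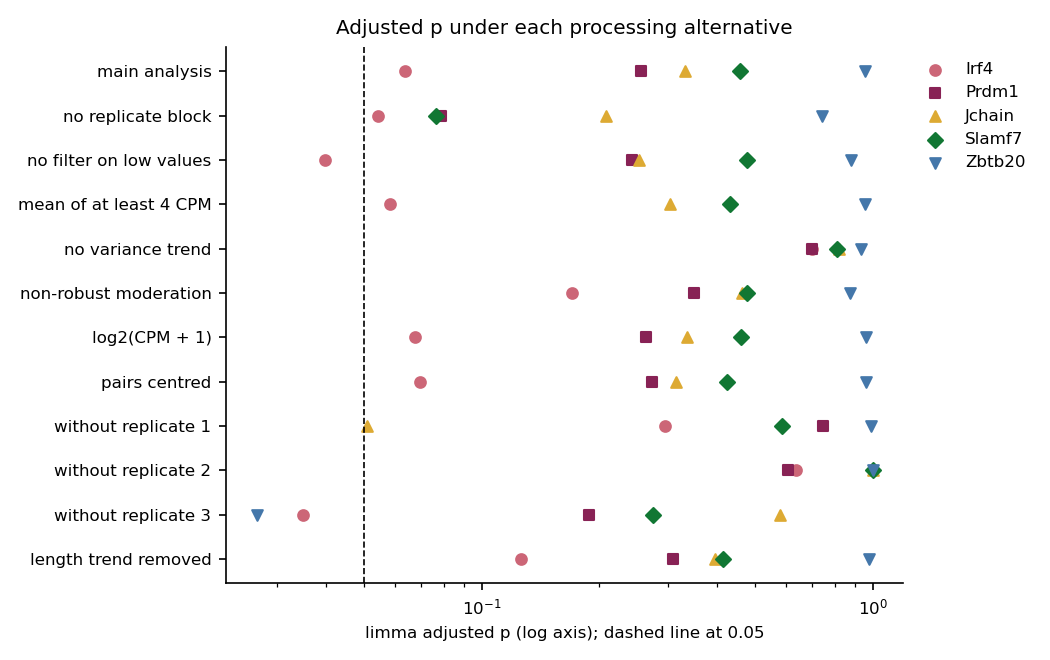
Adjusted p by limma (log axis, dashed line at 0.05) of 5 plasma cell genes in the main analysis and 11 alternatives, 1 symbol per gene. Irf4 falls left of the line with no filter on low values and without replicate 3, Zbtb20 only without replicate 3, and the other genes stay to the right throughout.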

How the data were processed

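The submitters' processing notes name STAR 2.6.1a, Subread 2.0.1, featureCounts, limma, Trim Galore 0.6.5, FastQC 0.11.7 and build mm10, without settings, roles or order. The authors deposited log2 values per gene and library. That they are log2 CPM, put on a common distribution and cleared of replicate differences, was worked out from the values. A quantile step of this kind can shrink differences of the most abundant genes.

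Genotypes were compared with limma 3.58.1 under R 4.3.3 (genotype and replicate number, variance trend, robust moderation, two-sided, Benjamini-Hochberg adjustment over 10133 genes whose mean reached 1 CPM and whose values were not all equal). The replicate number stayed in the model as a block because the deposited values had lost 2 degrees of freedom to it. What a number stands for is not labelled, and the equal sums leave no way to check whether it pairs samples. The fit was tested on simulated data. The members and lists were chosen with earlier results of these data known. Named genes were the members, Basp1, up to 3 genes per list with the smallest p, and the 3 genes nearest to Irf4, Prdm1 and Xbp1. Gene models were GENCODE M21 (GRCm38). Alternatives were 1 change each, and the removal of a length trend was chosen after seeing the data.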

Additional observations from a re-analysis of the deposited data

How the results depend on the processing

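Without the replicate block 142 genes were called over all genes, 11 of the 27 among them, with 0 of the members (adjusted p = 0.0542 for Irf4) and 3 list genes. That fit ignores the 2 degrees of freedom already lost to the replicate number, so its p-values by limma can be too small. With no filter on low values the counts were 95 genes, 1 member (Irf4) and 3 list genes, and with non-robust moderation 12, 0 and 0 (885, 4 and 15 at an unadjusted p under 0.05, by limma). With no variance trend they were 0, 0 and 0 (640, 2 and 7 at an unadjusted p under 0.05), and with the length trend removed 12, 0 and 0 (938, 4 and 15). Centring each pair gave 25 genes, 0 members and 0 list genes (903, 4 and 16). Leaving out a replicate left 2 pairs and gave 11 to 136 genes, 0 to 2 members (Irf4 and Zbtb20 without replicate 3) and 0 to 5 list genes. The spread of a gene is smaller in such fits where the dropped pair went the other way, as pair 3 did for Zbtb20. In these fits the sign of small differences turned: Irf8 ran from -0.10 to 0.035, Xbp1 from -0.0305 to 0.12, Ell2 from -0.0115 to 0.06 and Zbtb20 from -0.40 to 0.10, and among list genes Irf2bpl from -0.13 to 0.48, Sh2d1b1 from -0.11 to 0.49 and Slamf9 from -0.025 to 0.49. Of 65 member values under the other alternatives 64 kept direction and side of the threshold and 1, Irf4 with no filter, passed. Read depth is unknown, and for Sdc1, Tnfrsf17 and Prdm1 the low level limits what could be detected.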

Other observations

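Some listed genes lay below the filter on low values and entered no comparison. The following were chosen after their values were seen. Bhlha15, which encodes MIST1, a factor of secretory cells, was listed at -2.77, -3.02 and -1.46 log2 CPM in WT 1, 2 and 3 and at -0.59, -0.34 and -1.90 in KO 1, 2 and 3, so pairs 1 and 2 were higher in KO and pair 3 was lower (limma adjusted p = 0.410 with no filter on low values). Cd28, a costimulatory receptor of T cells that long-lived plasma cells also carry, was close to the floor of -5.063 in WT (-5.05, -5.58 and -4.56) and at -2.49, -1.96 and -2.98 in KO, without overlap (adjusted p = 0.0994 with no filter). Of the 11 T cell markers 3 (Cd3e, Bcl11b and Themis) were at the floor in all 6 libraries. Cd8b1 (0.403 CPM in WT and 0.431 in KO), Cd3d (0.267 and 0.104), Cd4 (0.140 and 0.0948) and Cd3g (0.0359 and 0.0650) were low but above it on average. So were Cd8a (0.0781 and 0.0678) and Tcf7 (0.253 and 0.062). Lck was higher in KO in all 3 pairs and Tcf7 was lower in all 3. Lat, at 3.55 CPM in WT and 4.30 in KO, was higher in KO in pairs 1 and 2 and lower in pair 3. The part of T cells in the Cd28 values was not tested.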
